A study of Rattus norvegicus with 18 samples.

Results

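The genes described here encode the voltage-gated sodium channels, the voltage-gated calcium channels and the HCN channels of the rat. They were chosen by name, as all probes whose gene symbol was Scn followed by a digit, began with Cacn, or was Hcn followed by a digit. There were 39 such probes of 22523 on the array, 1 for each gene, and 24 of the 39 were above background on at least 1 array. RNA came from primary cortical neurons of E18 rat embryos, grown in Neural Basal Medium and exposed for 6 h on day 1 of culture to a pLKO.1 lentivirus. One arm received an shRNA against CHD5, a chromatin remodeling ATPase of the Mi2 type that is found mainly in brain, and the other received a virus with a scrambled shRNA. Each arm was harvested on days 5, 9 and 12, with 3 arrays (a, b and c) per day and virus and 18 arrays in all. All cultures therefore carried a lentivirus, a single CHD5 shRNA sequence was used, and the whole dish was lysed, so that neurons were not separated from other cells. The comparison of the viruses addresses how CHD5 depletion alters channel mRNA, and the comparison of days addresses how channel mRNA changes as the cultures age. Chd5 itself had no probe, so its depletion could not be read on these arrays. Whether the 3 arrays of a group came from separate cultures is not stated, and p-values then measure only the spread between these samples, which may be technical.

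Sodium channels carry the rising phase of the action potential. Their pore is formed by an alpha subunit (Scn1a, Scn2a, Scn8a and relatives), and beta subunits modulate gating and surface expression. Calcium channels open on depolarization and admit the calcium that triggers transmitter release, dendritic responses and transcription. Their alpha1 subunit forms the pore and sets the current type (L, P/Q, N, R or T), the beta subunit lies in the cytoplasm and brings the pore to the membrane, and the alpha2delta subunit is largely extracellular and promotes trafficking. Several gamma subunits are better known as TARPs, which bind AMPA receptors rather than calcium channels. HCN channels open on hyperpolarization and carry a mixed cation current that sets resting potential and rhythmic firing.

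Detection was uneven between the classes. A probe was counted as detected when its detection p-value was at most 0.02, the p-value coming from a comparison with the negative control beads on that array. All 18 arrays detected 10 of the genes, among them Scn1a, Scn2a1, Scn3b, Cacna1c, Cacna2d1, Cacna2d3, Cacnb3, Cacng2 and Cacng4. Scn2a1 is the array's older name for Scn2a. A further 3 (Cacna1g, Cacnb1 and Cacng3) were missed on 1 array each. No array detected 15 of the genes, whose highest signals lay between 69.1 (Cacng6) and 105 (Cacnb2), against an array background of 65.3 to 81.8. For these 15 the arrays show only that the signal was not above background, and none entered a test.

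**Figure D1:**
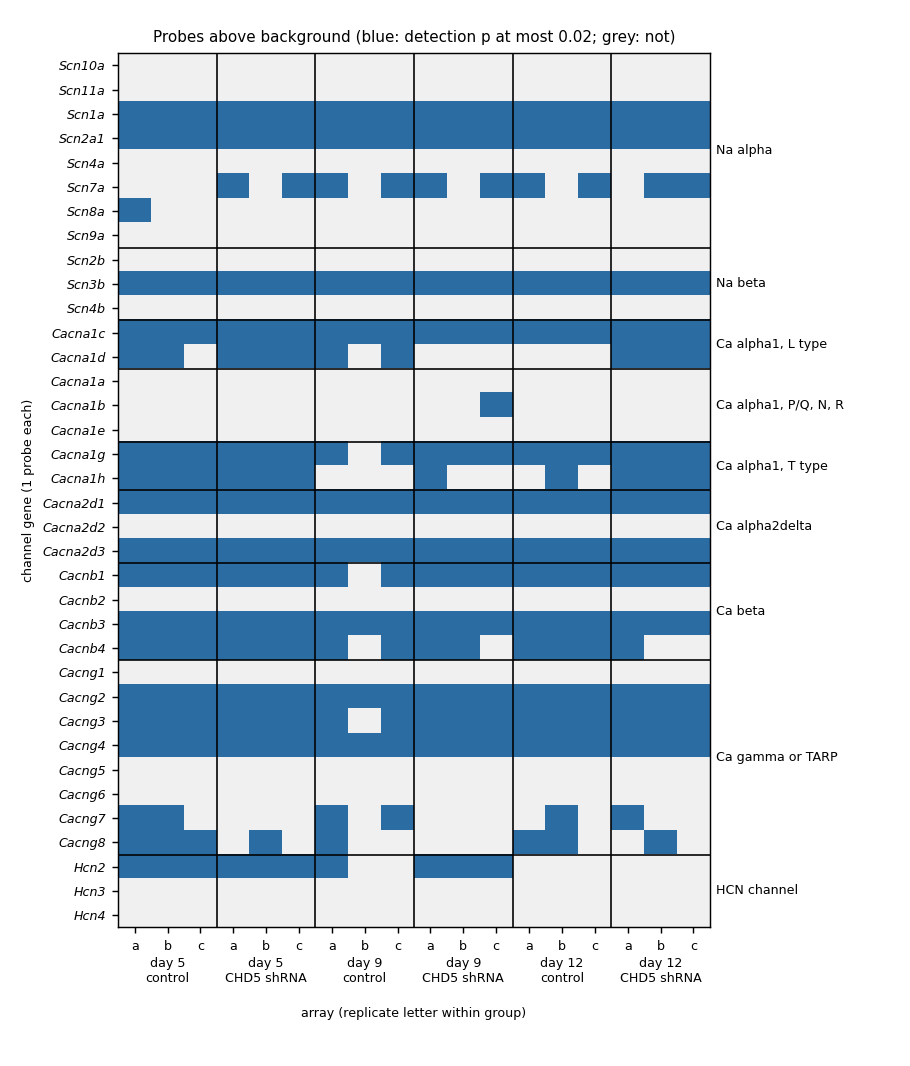
Each row is 1 of 36 channel genes and each column 1 array, grouped by day and virus, with blue for a detection p-value of at most 0.02 and grey for a higher one. Of these 36 genes, 9 are blue on all 18 arrays and 15 on none, and array b of the day 9 control group has the fewest blue cells (9).

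Among the sodium channel alpha subunits, Scn1a and Scn2a1, which encode central neuronal pores, were detected throughout. Scn7a, which encodes a sodium-sensing relative found in glia and peripheral nerve, was detected on 10 arrays. Scn8a, a pore of the axon initial segment, was detected on 1 array. The skeletal muscle gene Scn4a and the peripheral sensory neuron genes Scn9a, Scn10a and Scn11a were detected on none. Of the beta subunits, Scn3b was detected on all arrays, and Scn2b and Scn4b on none.

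Among the calcium channel pores, both L-type genes were detected, Cacna1c on 18 arrays and Cacna1d on 10. Both T-type genes were detected as well, Cacna1g on 17 arrays and Cacna1h on 11. Of the P/Q-, N- and R-type pores, which serve transmitter release, Cacna1b was above background on 1 array, while Cacna1a and Cacna1e were on none. In the same arrays the synaptic vesicle sensor Syt1 and the SNARE gene Snap25 were detected 18 times of 18. Of the 8 gamma and TARP genes, Cacng2, Cacng3 and Cacng4 were detected on 17 or 18 arrays, Cacng7 on 6 and Cacng8 on 8, and the skeletal muscle gamma subunit Cacng1 was not detected, nor were Cacng5 and Cacng6. Hcn2 was detected on 10 arrays, and Hcn3 and Hcn4 on none.

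Several of these genes are neighbours in the RefSeq annotation of the rat, some of them with unlike detection. Cacng1, Cacng4 and Cacng5 follow each other on chromosome 10, and only Cacng4 of these 3 was detected. On chromosome 3, Scn1a, Scn9a and Scn7a follow each other, with 18, 0 and 10 arrays. Scn2b and Scn4b, both undetected, are adjacent on chromosome 8.

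One array stood apart and touches every day 9 value. On array b of the day 9 control group the mean signal over all probes was 135, against 400 to 789 on the other arrays, and 11 channel genes were detected against 15 to 20. The spread of its log2 signals (SD 1.11, against 1.72 to 2.02) was also narrower. Scaling each array to a common spread stretched probes near background on that array, so that Hcn2 had a normalized log2 level of 7.14 there with a signal of 73.9 that was not above background. The fit was therefore also made without it, and the value without it stands beside the day 9 differences that it moved.

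After CHD5 shRNA 3 calcium channel auxiliary subunit genes were higher, by the criterion of an adjusted p under 0.05 (limma, Benjamini-Hochberg over all 11079 probes tested), Cacnb3 at day 9 and Cacnb1 and Cacna2d1 at day 12. No sodium channel, pore-forming calcium channel, TARP or HCN gene was called between the viruses on any day. At day 5, 0 of 24 were called, against 0.171% of all probes, and 1 had an unadjusted p under 0.05 (5.66% of all probes). At days 9 and 12 the unadjusted p was under 0.05 for 2 and 5 of them (20.2% and 16% of all probes). At day 9, 1 of 24 was called (4.17%), against 5.89% of all probes, or 3.65% counting only higher ones. At day 12, 2 of 24 were called (8.33%), against 5.47%, or 2.23% counting only higher ones. The median difference over the 24 genes was 0.06 on the log2 scale at day 12, against 0.01 over all probes. Without the dim day 9 array the counts were 0 at day 5, 2 at day 9 (Cacnb3 and Hcn2) and 3 at day 12 (with Cacnb3), against 1.46%, 10.6% and 13% of all probes.

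**Figure D2:**
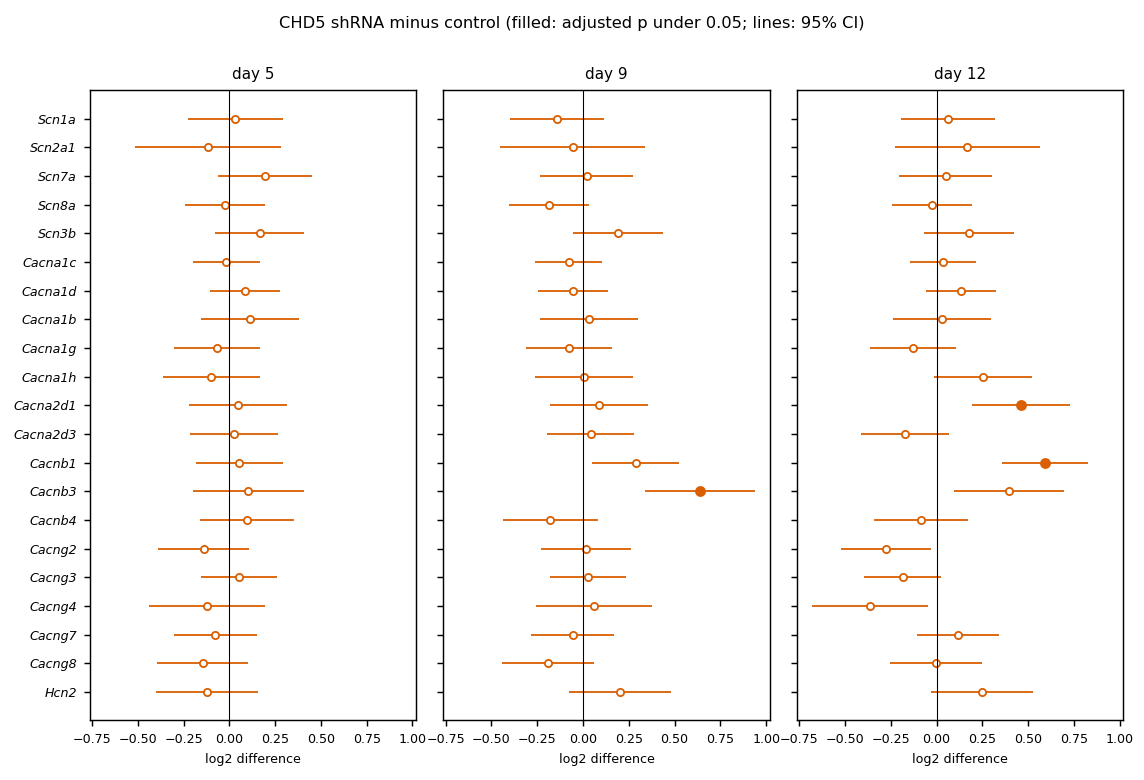
CHD5 shRNA minus control on the normalized log2 scale for 21 detected channel genes at days 5, 9 and 12, with 95% confidence intervals from limma and filled points for an adjusted p under 0.05. The filled points are Cacnb3 at day 9 (0.64) and Cacnb1 (0.59) and Cacna2d1 (0.46) at day 12.

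The make-up of the cultures moved along with these comparisons. Of 8 astrocyte markers detected, 8 rose by day 12 in control cultures (median 2.05 on the log2 scale), against 11.1% of all probes. In CHD5 shRNA cultures 8 rose as well (median 2.03), against 8.46% of all probes. Compared with control, 5 were lower after CHD5 shRNA at day 9 (median -1.02) and also 5 at day 12 (median -0.68). Of all probes, 5.89% and 5.47% were called in either direction. The summed signal of the 8 astrocyte markers at day 12 was 41085 to 48114 on control arrays and 22091 to 25633 on CHD5 shRNA arrays. Of 11 neuronal markers, 1 was higher after CHD5 shRNA at day 9 and 1 at day 12, against 3.65% and 2.23% of all probes. The medians were 0.13 (0.23 without the dim array) and 0.16. The marker called was the tubulin gene Tubb3, higher by 0.55 (0.59 without the dim array) and 0.53. The part of this shift in the Cacnb3, Cacnb1 and Cacna2d1 differences, or in the changes with time, was not tested. In such bulk RNA, fewer cells of a type and less RNA per cell cannot be told apart. At day 12, 1 of 8 oligodendrocyte lineage markers, 2 of 6 interneuron markers and 2 of 3 fibroblast markers detected were lower after CHD5 shRNA. Of all probes, 5.47% were called in either direction. With time, 7 of the 8 oligodendrocyte lineage markers rose by day 12 in control cultures and 6 in CHD5 shRNA cultures (11.1% and 8.46% of all probes). Of the neuronal markers, 3 fell and 0 rose by day 9 in control cultures, against 22% of all probes called in either direction. The 1 endothelial and 2 microglial markers detected were not called. The microglial genes Itgam and Cx3cr1 were not detected on any array. Without the dim day 9 array, 5 astrocyte markers were lower at day 9 (median -0.77) and 6 at day 12 (median -0.70). In that fit 10.6% and 13% of all probes were called in either direction.

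Cacnb3 encodes a cytoplasmic beta subunit abundant in brain. At day 9 its normalized log2 level was 10.53, 9.92 and 10.47 on the control arrays and 11.10, 10.69 and 11.05 on the CHD5 shRNA arrays. Every CHD5 shRNA array lay above every control array, and the lowest control value was that of the dim array b. The difference was 0.64 (SE 0.14, n = 3 per group, limma adjusted p = 0.0148), or 1.56-fold. Without the dim array it was 0.45, with a limma adjusted p of 0.0158. It lost the call without array a (0.56, limma adjusted p = 0.0809) or array c (0.59, limma adjusted p = 0.104) of the day 9 CHD5 shRNA group.

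At day 12 the Cacnb3 levels were 10.67, 10.55 and 10.63 in control cultures and 10.96, 11.07 and 11.01 after CHD5 shRNA. These groups did not overlap either, but the difference of 0.39 (SE 0.14) was not called (limma adjusted p = 0.144). Without the dim day 9 array, which enters through the shared estimate of the spread and the common scale, it was called (0.40, limma adjusted p = 0.0123). At day 5 the levels of 10.57, 10.60 and 10.83 in control cultures overlapped those of 10.90, 10.67 and 10.74 after CHD5 shRNA. The day 5 difference was 0.10 (95% confidence interval -0.20 to 0.41).

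Cacnb1 encodes another beta subunit, best known as part of the skeletal muscle channel and also expressed in brain. At day 12 its normalized log2 level was 6.95, 7.05 and 6.98 on the control arrays and 7.67, 7.56 and 7.52 on the CHD5 shRNA arrays. The groups were well separated, and each array detected the probe. The difference was 0.59 (SE 0.11, n = 3 per group, limma adjusted p = 0.00383), or 1.51-fold. It was called in each alternative run and with each array left out in turn (0.48 to 0.96).

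At day 9 Cacnb1 stood at 7.20, 7.21 and 7.12 in control cultures and at 7.49, 7.19 and 7.71 after CHD5 shRNA. Array b of the CHD5 shRNA group lay within the control range, and the difference of 0.29 was not called (limma adjusted p = 0.146). It was called without that array (0.43, limma adjusted p = 0.0304) and not without the dim control array (0.31, limma adjusted p = 0.0987). At day 5 the levels of 7.62, 7.50 and 7.47 in control cultures and 7.60, 7.70 and 7.46 after CHD5 shRNA overlapped. Skeletal muscle markers were looked at beside this gene. Myh4, Ckm and Myog were not detected on any array, while the actin gene Acta1 was higher after CHD5 shRNA by 0.77 at day 9 (0.62 without the dim array) and 1.04 at day 12. The part of Acta1-expressing cells in the Cacnb1 difference was not tested.

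Cacna2d1 encodes the alpha2delta subunit that binds gabapentin. At day 12 its normalized log2 level was 11.49, 11.67 and 11.67 on the control arrays and 12.11, 12.06 and 12.05 on the CHD5 shRNA arrays. The groups did not overlap, and the CHD5 shRNA arrays lay within the range of day 5. The difference was 0.46 (SE 0.13, n = 3 per group, limma adjusted p = 0.0408), or 1.38-fold. The call was lost when any 1 of the 6 day 12 arrays was left out (0.40 to 0.49), with limma adjusted p-values from 0.0840 without control array b to 0.202 without control array a, and without any 1 of the day 9 CHD5 shRNA arrays (0.46, limma adjusted p = 0.0555 to 0.0573). At day 5 the groups overlapped, with a difference of 0.05 (95% confidence interval -0.22 to 0.32). At day 9 they overlapped through the dim control array b alone, and the difference of 0.09 (-0.18 to 0.35) was 0.23 without it (limma adjusted p = 0.204). With array weights, which give less reliable arrays less influence, the day 9 difference was 0.31 and called (limma adjusted p = 0.00424). The weights of day 9 control arrays a, b and c were 0.46, 0.048 and 4.08, so that group rested mostly on array c.

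The windows of 250 bases upstream of the annotated start of Cacna2d1 and Cacnb3 are shown because these genes were higher after depletion of a protein that acts on chromatin. They come from RefSeq (GRCr8, 5′ to 3′ on the strand of the gene). Cacnb1, which was also called higher, had no upstream window in the sequences used here. Capitals mark the GC box GGGCGG on either strand, which reads CCGCCC when it lies on the opposite one. The Cacna2d1 window is chr4:20330148-20330397 on the minus strand, with 7 GC boxes and 77.2% G and C. The Cacnb3 window is chr7:131666301-131666550 on the plus strand, with 3 GC boxes and 76.4% G and C.
Cacna2d1: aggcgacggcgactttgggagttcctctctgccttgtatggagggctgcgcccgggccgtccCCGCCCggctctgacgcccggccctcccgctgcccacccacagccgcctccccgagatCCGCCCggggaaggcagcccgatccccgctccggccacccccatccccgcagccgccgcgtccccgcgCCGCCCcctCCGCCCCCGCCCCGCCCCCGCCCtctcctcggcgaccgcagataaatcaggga
Cacnb3: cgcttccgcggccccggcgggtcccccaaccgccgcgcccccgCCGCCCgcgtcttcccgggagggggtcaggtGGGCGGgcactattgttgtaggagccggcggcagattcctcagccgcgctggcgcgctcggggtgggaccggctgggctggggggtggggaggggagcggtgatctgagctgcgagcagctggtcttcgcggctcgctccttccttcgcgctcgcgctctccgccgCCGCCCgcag
Neither window held the TATA box TATAAA on either strand. Of all 33469 windows of this length in the table, 30.5% held a GC box and 12.9% a TATA box. GC boxes were not particular to these 2 genes. Among channel genes not called between the viruses, the window of Cacna1d held 9, that of Scn8a 6 and that of Cacna2d3 4, while those of Cacna1c, Cacng2 and Scn2a1 held none. These letters are a description of the windows, and binding of CHD5 was not measured on these arrays.

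The other channel genes gave small differences between the viruses. At day 12, the TARP gene Cacng2 stood at 8.71, 8.76 and 8.73 in control cultures and 8.51, 8.44 and 8.42 after CHD5 shRNA. These groups did not overlap, and the difference of -0.28 (SE 0.12) was not called (limma adjusted p = 0.236). Its relative Cacng4 stood at 7.74, 7.57 and 7.75 against 7.39, 7.12 and 7.45, without overlap and without a call (-0.37, SE 0.15, limma adjusted p = 0.212). Both were called lower when the day 12 arrays were fitted alone (limma adjusted p = 0.00616 for Cacng2 and 0.00592 for Cacng4) and with array weights (0.00703 and 0.00535). The same fits called Cacnb3 higher at day 12 (limma adjusted p = 0.000559 and 0.000369). They also called Hcn2 higher (limma adjusted p = 0.0327 and 0.0132), though no day 12 array detected it. With array weights Cacna2d3 was called lower as well (-0.18, limma adjusted p = 0.0381). In all, 8 of the 24 genes (33.3%) had day 12 groups without overlap, against 38.2% of all probes. At day 9 this held for 1 of 24 (20.6% of all probes), or 9 of 24 without the dim array (47.2% of all probes, with 2 control arrays), and at day 5 for 1 of 24 (11% of all probes).

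Confidence intervals of some pore-forming genes bounded the size of change that could have been missed. For Scn2a1 the day 12 difference was 0.17, with a 95% confidence interval of -0.23 to 0.57. For Cacna1c it was 0.04 (-0.15 to 0.22). For the T-type pore gene Cacna1g it was -0.13 (-0.36 to 0.11). The other T-type gene, Cacna1h, averaged 6.65 in control cultures and 6.90 after CHD5 shRNA at day 12, detected on 1 of 3 and 3 of 3 arrays. It was not called, except with array weights (0.25, limma adjusted p = 0.0287). The auxiliary gene Scn3b differed by 0.16, 0.19 and 0.18 at days 5, 9 and 12, none of them called, and the day 9 value was 0.06 without the dim array. Cacna1b and Scn8a entered the test through 1 array each and were not above background on any day 12 array, so no difference is given for them.

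Between days 5 and 12 the cultures of both arms changed in several channel genes. In control cultures 2 of the 24 genes changed between days 5 and 9, both downward (8.33%, against 22% of all probes, or 12.8% counting only falls), and 7 changed between days 5 and 12 (29.2%, against 23.6% of all probes). Of the 7, Cacng3, Cacna1g and Cacna2d3 rose (11.1% of all probes rose) and 4 fell, among them Cacnb1, Hcn2 and Cacna2d1 (12.5% of all probes fell). After CHD5 shRNA 1 of 24 changed by day 9, a fall (4.17%, against 9.33%, or 4.72% counting only falls). By day 12 there were 4 (16.7%, against 17%), of which 2 rose and 2 fell, against 8.46% and 8.56% of all probes. Without the dim day 9 array the day 12 counts were 10 in control cultures and 5 in CHD5 shRNA cultures, against 38.4% and 31.6% of all probes, and the day 9 counts were 6 and 2, against 20.7% and 25.4%. The comparisons between days and those between viruses share arrays, so their values are set side by side and not counted as independent.

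**Figure D3:**
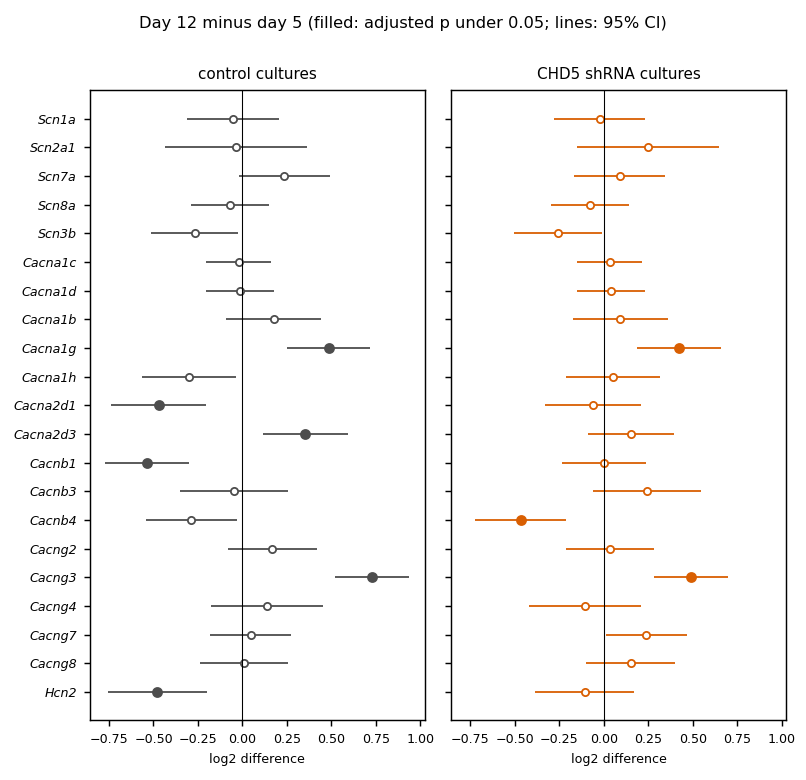
Day 12 minus day 5 on the normalized log2 scale for 21 detected channel genes, in control cultures (left) and CHD5 shRNA cultures (right), with 95% confidence intervals from limma and filled points for an adjusted p under 0.05. Filled points number 6 in control cultures and 3 in CHD5 shRNA cultures, and Cacng3 and Cacna1g are filled in both.

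Cacng3, which encodes a TARP of forebrain neurons, had the largest rise among the 24 genes by day 12 in both arms. The day 5 control arrays stood at 7.07, 6.99 and 7.09 on the normalized log2 scale and the day 12 control arrays at 7.80, 7.89 and 7.64. The rise of 0.73 (SE 0.10, limma adjusted p = 2.38e-05) was 1.66-fold. With CHD5 shRNA it went from 6.97, 7.27 and 7.07 to 7.49, 7.65 and 7.64. That rise was 0.49 (SE 0.10, limma adjusted p = 0.0019), and the days did not overlap in either arm. Both calls held in each alternative and with each array left out in turn.

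Cacna1g, a T-type pore gene, rose in both arms. In control cultures its mean level was 6.97 ± 0.14 (SD, n = 3) at day 5 and 7.46 ± 0.069 at day 12, a rise of 0.48 (SE 0.11, limma adjusted p = 0.00363). The CHD5 shRNA arm gave 6.91 ± 0.093 and 7.33 ± 0.12 (0.42, SE 0.11, limma adjusted p = 0.0131). The second call was lost without day 5 array c, day 12 array b or day 12 array c of that arm (0.37 to 0.40, limma adjusted p = 0.0539 to 0.071). Cacna2d3, another alpha2delta gene, rose in control cultures from 6.85 ± 0.11 to 7.20 ± 0.051 (0.35, SE 0.11, limma adjusted p = 0.0307). This call was lost without day 5 control array a or b or any day 12 control array (0.32 to 0.38, limma adjusted p = 0.0525 to 0.102). In CHD5 shRNA cultures the Cacna2d3 difference was 0.15 and was not called.

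Hcn2, which encodes an HCN channel sensitive to cyclic AMP, was detected on 3 of 3 control arrays at day 5 and 0 of 3 at day 12. The normalized log2 level was 6.92, 6.81 and 6.89 at day 5 and 6.29, 6.53 and 6.36 at day 12 (-0.48, SE 0.13, limma adjusted p = 0.0127). As the day 12 probe was not above background, the fold is a bound set by the lowest signal that was, and Hcn2 was at least 1.09-fold lower. The call was lost without day 12 control array a (-0.43, limma adjusted p = 0.0609). At day 9, Hcn2 was 6.95, 6.86 and 7.07 after CHD5 shRNA and detected on each array, against 6.54, 7.14 and 6.59 in control cultures, detected on array a alone. The difference was 0.20 and not called with the dim array b, and 0.40 and called (limma adjusted p = 0.0126) without it.

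Cacnb1 and Cacna2d1 fell with time in control cultures. Cacnb1 went from 7.53 ± 0.078 (SD, n = 3) at day 5 to 7.18 ± 0.048 at day 9 and 6.99 ± 0.052 at day 12. Its differences from day 5 were -0.35 (SE 0.11, limma adjusted p = 0.032) and -0.54 (SE 0.11, limma adjusted p = 0.00168). The day 9 call was lost without day 5 control array a or b or day 9 control array c (-0.37 to -0.31, limma adjusted p = 0.0665 to 0.112), and was -0.38 without the dim array (limma adjusted p = 0.0271). In CHD5 shRNA cultures the Cacnb1 level was 7.59 ± 0.12, 7.46 ± 0.26 and 7.58 ± 0.077, and the difference of day 12 from day 5 was 0.00 (95% confidence interval -0.24 to 0.24).

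Cacna2d1 went from 12.08 ± 0.21 to 11.61 ± 0.11 in control cultures by day 12 (-0.47, SE 0.13, limma adjusted p = 0.0112). The call was lost without day 5 control array b (-0.36, limma adjusted p = 0.0754) or day 12 control array a (-0.41, limma adjusted p = 0.0601). In CHD5 shRNA cultures the level was 12.13 ± 0.15 and 12.07 ± 0.031 (-0.06, 95% confidence interval -0.33 to 0.21). The day 12 control arrays enter both the fall with time and the difference between viruses for these genes.

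Whether the effect of CHD5 shRNA itself changed between days was tested by interaction terms, and 0 of 24 channel genes were called in any of them. Of all probes 0% were called for day 9 against day 5, 0.153% for day 12 against day 5 and 0% for day 12 against day 9. The unadjusted p was under 0.05 for 2, 3 and 0 channel genes, against 7.3%, 6.75% and 2.36% of all probes. The Cacnb1 effect was larger at day 12 than at day 5 by 0.54 (SE 0.16, limma adjusted p = 0.232), and the Cacna2d1 effect by 0.41 (SE 0.18, limma adjusted p = 0.644). The Cacnb3 effect was larger at day 9 than at day 5 by 0.53 (SE 0.20, limma adjusted p = 0.554), or 0.35 without the dim array. With array weights the Cacnb1 and Cacna2d1 terms for day 12 were called (0.56, limma adjusted p = 0.00688, and 0.48, limma adjusted p = 0.0124). Day 5 control arrays a, b and c had weights of 0.36, 3.13 and 0.38 there, so that group rested mostly on array b.

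Cacnb4, a beta subunit gene whose loss causes ataxia and seizures in mice, was called with time in CHD5 shRNA cultures. The day 5 arrays stood at 7.05, 7.53 and 7.02 on the normalized log2 scale, the day 9 arrays at 6.79, 6.83 and 6.65, and the day 12 arrays at 6.82, 6.66 and 6.72. The probe was above background on 3 of 3 arrays at day 5, 2 of 3 at day 9 and 1 of 3 at day 12 in this arm, so the later levels lie near background. The differences from day 5 were -0.44 (SE 0.12, limma adjusted p = 0.0299) and -0.47 (SE 0.12, limma adjusted p = 0.0122). Without array b of day 5, the highest value, they were -0.28 (limma adjusted p = 0.17) and -0.30 (limma adjusted p = 0.0815). The day 9 call was also lost without any 1 day 9 array of that arm (-0.48 to -0.39, limma adjusted p = 0.0618 to 0.128), and the day 12 call without day 12 array b (-0.43, limma adjusted p = 0.0576). In control cultures the differences were -0.17 (-0.11 without the dim array) and -0.29 and were not called, though the second was called without the dim array (-0.29, limma adjusted p = 0.0441), and the difference between arms was not called either (limma adjusted p = 0.823 and 0.999).

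**Figure D4:**
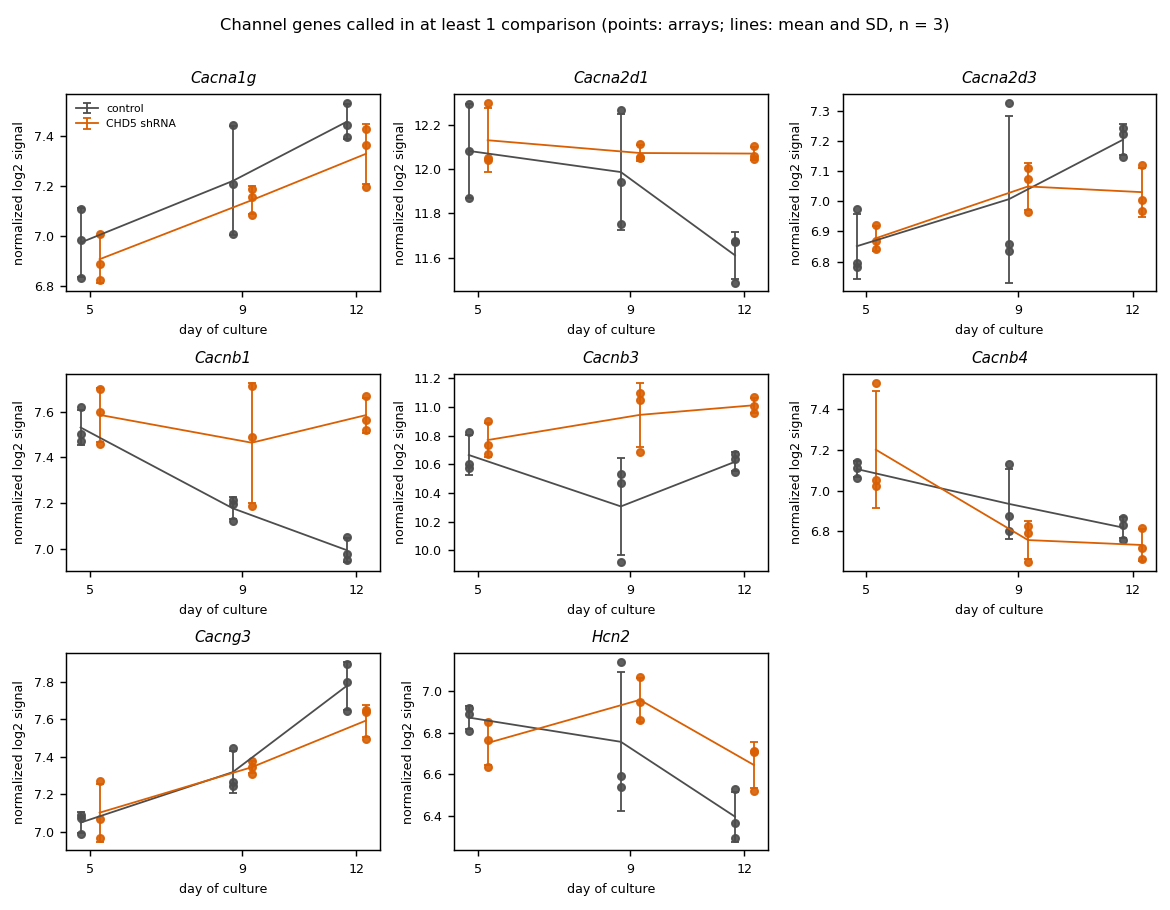
Normalized log2 level by day of culture for 8 channel genes called in at least 1 comparison, with each array as a point and lines through the mean with SD (n = 3), grey for control and orange for CHD5 shRNA. For Cacnb1 the day 12 control points (6.95 to 7.05) lie below all CHD5 shRNA points of that day (7.52 to 7.67), and Cacng3 rises with time in both arms.

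Scn1a, Scn2a1, Scn3b, Cacna1c and Cacng2 were not called between days. Scn2a1 averaged 8.21 ± 0.38 (SD, n = 3), 7.87 ± 0.45 and 8.18 ± 0.20 in control cultures at days 5, 9 and 12. Scn1a averaged 7.61 ± 0.26, 7.50 ± 0.16 and 7.56 ± 0.074 in the same groups. On day 9 control arrays a, b and c, Scn2a1 stood at 8.34, 7.43 and 7.85 and Scn1a at 7.68, 7.36 and 7.46. The dim array b thus gave the lowest day 9 value of each. Scn3b averaged 11.76 ± 0.097 at day 5 and 11.49 ± 0.086 at day 12 in control cultures, a difference of -0.27 (SE 0.12, limma adjusted p = 0.111) that was called without the dim day 9 array (-0.27, limma adjusted p = 0.023). In CHD5 shRNA cultures 2 further calls arose without that array, Scn3b at day 12 (-0.26, limma adjusted p = 0.0339) and Cacna1c at day 9 (-0.23, limma adjusted p = 0.0381). Cacna1c averaged 7.83 ± 0.050 at day 5 and 7.81 ± 0.065 at day 12, a difference of -0.02 (95% confidence interval -0.20 to 0.16). Cacng2 averaged 8.56 ± 0.088 and 8.73 ± 0.025, a difference of 0.17 that was not called.

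Proteins that bind these channels were read from lists of partners. Of 11 sodium channel partners, 8 were detected. In control cultures 3 of the 8 fell by day 9, against 12.8% of all probes (2 of the 8 without the dim array). Among them were Spnb4 (beta-IV spectrin of the axon initial segment, -0.63, limma adjusted p = 0.00544, or -0.53 without the dim array) and the ubiquitin ligase Nedd4l (-0.48, limma adjusted p = 0.00896, or -0.32 without the dim array). The intracellular FGF gene Fgf13, whose product binds sodium channels, differed by -0.46 between the viruses at day 9 and was not called (limma adjusted p = 0.26), but was called lower without the dim array (-0.75, limma adjusted p = 0.0244). At day 12, Nedd4l, which removes sodium channels from the membrane, was the 1 partner of the 8 that was higher after CHD5 shRNA (0.45, SE 0.12, limma adjusted p = 0.0334), against 2.23% of all probes. Cntn1, an adhesion protein that binds sodium channel beta subunits, rose by day 12 in control cultures (0.64, limma adjusted p = 0.0087) and in CHD5 shRNA cultures (0.70, limma adjusted p = 0.0065).

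Of 18 calcium channel partners, 13 were detected. At day 9 and at day 12, 1 was higher after CHD5 shRNA, against 3.65% and 2.23% of all probes. It was Stx1a, the SNARE protein syntaxin that binds presynaptic calcium channels (0.47, limma adjusted p = 0.0256, and 0.54, limma adjusted p = 0.00966). None of the 13 was lower. Without the dim array Stx1a differed by 0.51 at day 9 (limma adjusted p = 0.0126), and the calmodulin gene Calm3 was also called (0.82, limma adjusted p = 0.000849). The active zone scaffold Rims1 differed by 0.74 at day 9 (SE 0.22) and was not called (limma adjusted p = 0.053), nor without the dim array (0.65, limma adjusted p = 0.0745). Of 5 HCN partners 3 were detected, and the scaffold filamin (Flna) fell by day 12 in control cultures (-0.92, limma adjusted p = 0.000112) and in CHD5 shRNA cultures (-0.70, limma adjusted p = 0.00214). Pex5l, the TRIP8b subunit of HCN channels, differed by -0.07 between the viruses at day 12 and was not called. Of the NALCN leak channel genes 1 of 3 was detected and was not called in any of these comparisons.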

How the data were processed

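RNA was hybridised to Illumina RatRef-12 BeadChips. Per the file header, the authors exported signal intensities from GenomeStudio 1.1.1 that were neither normalized nor corrected for background. Beside each intensity the authors deposited a detection p-value, which sets the probe against the negative control beads of its array. Second runs of the 6 replicate a arrays were used only in an alternative.

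A probe was kept if any array had a detection p-value of 0.02 or less (11079 probes). Their log2 intensities were Z-transformed per array, following the study's methods, and returned to the mean log2 spread and level of the arrays. limma 3.58.1 in R 4.3.3 (lmFit, eBayes) was fitted to the 6 groups of 3 arrays, with Benjamini-Hochberg adjustment over all probes within each of 10 contrasts and a limit of 0.05. limma replaced the Z-ratio of the study because it gives an error for each probe. An exact permutation test of 3 against 3 arrays cannot give a p below 0.1. The number of arrays limits the precision. The fit was tested on simulated data with known changes. Of simulated log2 changes of 0.5, it recovered 62%, 56% and 56% for the comparison of viruses at days 5, 9 and 12. False calls were 6.88%, 5.43% and 4.35%. Changes of about that size can therefore go without a call.

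Values by array were given for genes called between the viruses or in an interaction. Group means or values by array were given for genes called between days and for the brightest detected probe of each class, and other genes were counted. Cacna1b, the only detected probe of the P/Q, N and R class, was an exception, as only 1 array detected it. Some channel genes enter the counts but are not reported by name here or drawn in the figures. The channel genes and the lists of partners and markers were chosen with earlier results of these data known. Each channel gene matched RefSeq by gene ID, and 25 of 39 had an upstream window in the table used here, which is too few for a check across the set. Cacna1f, Cacna1i, Cacna1s, Cacna2d4 and Scn3a were not analysed here. Normalization, filters, array weights, the replicate letter as a block and single arrays were varied in alternatives.

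The correlation across probes of same-lettered arrays' deviations from their group means was 0.268, 0.168 and 0.377 at day 5, so the letters were taken to pair the day 5 arrays. The values given come from the fit without this block, and the fit with it is an alternative. It was 0.426, 0.148 and -0.198 at day 9 and 0.0472, 0.153 and 0.014 at day 12.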

Additional observations from a re-analysis of the deposited data

How the results depend on the processing

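The 17 calls of a channel gene in a comparison were recomputed 448 times, and 389 recomputations gave the same direction and call, 59 lost the call and 0 turned the direction. Each call had 18 runs that left out 1 array, and most of these removed an array outside its comparison. The share of calls kept therefore overstates how firm they are. Cacna2d1 at day 12 kept its call in 9 of these 18 runs but lost it without any 1 of the day 12 arrays. For CHD5 shRNA against control at day 9 the count of channel genes called was 1, and it was 3 with quantile normalization, 0 with median centring, 3 with limma's neqc, 5 with array weights, 0 with the day 9 arrays alone and 0 by the methods' criteria. At day 12 it was 2, and it was 1 with median centring, 1 without a detection filter, 8 with array weights, 1 with the second measurement of replicate a, 6 with the day 12 arrays alone and 4 by the methods' criteria. In control cultures the day 9 count of 2 was 4 with quantile normalization, 4 with neqc and 11 with array weights, and the day 12 count of 7 was 4 with median centring and 13 with array weights. In CHD5 shRNA cultures the day 9 count of 1 was 0 with median centring, neqc or no filter and 5 with array weights, and the day 12 count of 4 was 2 with median centring or no filter and 8 with array weights. With array weights 2 and 3 genes were called for the change of the effect from day 5 to day 9 and to day 12. These weights ran from 0.048 to 4.08, and 1 array held most of the weight in the day 5 and the day 9 control groups. The cause of these changes was not tested. Leaving out single arrays gave counts of 0 to 0, 0 to 2 and 1 to 3 between the viruses at days 5, 9 and 12. It gave 1 to 9 and 4 to 10 in control cultures at days 9 and 12, 0 to 2 and 1 to 5 in CHD5 shRNA cultures, and 0 to 0 for the interactions. The highest count, 9 in control cultures at day 9, arose without control array a of that day, which leaves the dim array among 2. Leaving the dim array out for the marker and partner lists and for the day 9 count of groups without overlap was chosen after seeing the data.

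With the replicate letter as a block within the day, the pairing gave 0, 1 and 1 channel genes called between the viruses at days 5, 9 and 12, and Cacna2d1 lost its call at day 12 (0.46, limma adjusted p = 0.0543). With the letter as a block over all days the counts were 0, 1 and 2. Cacnb3 at day 9 lost its call with median centring (0.76, limma adjusted p = 0.216) and in the day 9 arrays alone (0.60, limma adjusted p = 0.338). Cacna2d1 at day 12 lost it with median centring (0.40, limma adjusted p = 0.846), without a detection filter (0.44, limma adjusted p = 0.271) and with the second measurement of replicate a (0.39, limma adjusted p = 0.0661).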
